A study of Mus musculus with 24 samples.

Results

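Smyd3 is a SET and MYND domain lysine methyltransferase. In chromatin from diethylnitrosamine-treated mouse liver, 5425 of the 27324 deposited Smyd3 peaks (19.9%) lay inside protein-coding genes but away from both the start sites and the trimethylated histone H3 lysine 4 (H3K4me3) that marks them. A peak was counted here when it shared no base with an H3K4me3 region of wild-type liver, lay more than 1000 bp from every gene start of the deposited gene table, and overlapped the annotated span of a protein-coding gene. These gene-body peaks fell in 3649 of 22369 coding genes (16.3%), called host genes below. Of the other Smyd3 peaks, 11301 (41.4%) touched H3K4me3, 2245 (8.22%) lay at a gene start without it, and 8353 (30.6%) lay outside H3K4me3, start sites and coding genes. The choice used only peak positions and the annotation, and no RNA value.

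All mice were labelled C57BL6/CBA and were 8.5 months old. Diethylnitrosamine (DEN) is a liver carcinogen, given once by intraperitoneal injection at 25 mg/kg. The Smyd3KO mice carry a constitutive gene trap in the fifth intron of Smyd3, so the loss is not limited to hepatocytes, and exons upstream of the trap can still be transcribed. RNA was measured in whole liver from 3 mice in each of 4 groups, untreated WT, untreated Smyd3KO, DEN-treated WT and DEN-treated Smyd3KO. The Smyd3 peaks came from 2 replicate precipitations of DEN-treated WT liver with an in-house rabbit antiserum, and the H3K4me3 regions from 2 replicates of DEN-treated liver of each genotype. Each pair of precipitations is represented by 1 peak list, and no Smyd3 list from knockout liver was analysed here, so the peaks have no replicate or antiserum check in these data.

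H3K4me3 is placed mainly at active promoters by the SET1 and MLL complexes, and it falls off as polymerase moves into the gene. Smyd3 was first described as an enzyme acting on histone H3 lysine 4 and is also known to methylate other histone residues and cytoplasmic kinases. Sites of a chromatin protein within genes can be intragenic enhancers, alternative promoters that the annotation lacks, exons and gene ends crossed by elongating polymerase, or places of open, GC-rich DNA that crosslink readily. The deposited lists give intervals without heights, and exon boundaries were not analysed here, so these kinds were not separated.

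RNA totals ran from 22320634 to 28973396 normalized counts per library, and log2 values of libraries within a group correlated at 0.956 to 0.978 across genes. Fewer cells of a type and less RNA per cell cannot be told apart in these whole-liver samples. The summed level of 12 cholangiocyte (bile duct) markers was 1296 to 1593 in WT, 1180 to 1267 in Smyd3KO, 10720 to 17837 in DEN-treated WT and 1613 to 2425 in DEN-treated Smyd3KO. For 15 stellate cell and fibroblast markers the ranges were 4980 to 5576, 3796 to 5040, 6148 to 10894 and 4272 to 5222 in the same order. Hepatocyte markers summed to 2860870 to 3052623 in WT and 3983035 to 5904277 in DEN-treated WT, so markers of the labelled tissue were abundant. The hepatocyte sum was 2491993 to 3872847 in Smyd3KO and 2854191 to 3752615 in DEN-treated Smyd3KO. The bile duct, stroma and hepatocyte sums were therefore all highest in DEN-treated WT, as was that of B and plasma cell markers (23347 to 30875). With DEN in WT 4 of 9 tested cholangiocyte markers rose and 0 fell, and 8 of 15 stellate cell and fibroblast markers rose and 2 fell. Of 14 hepatocyte markers 2 rose and 3 fell, where 16.1% and 13.5% of all genes did. In DEN-treated Smyd3KO against DEN-treated WT 7 of the 14 were higher and 1 lower, where 16.4% and 17.4% of all genes were. The order of the hepatocyte sum was thus not that of most single hepatocyte markers. The part of these marker levels in the differences below was not tested.

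Gene-body peaks were narrow. Their median width was 646 bp (quartiles 505 and 842 bp), against 974 bp for peaks inside H3K4me3, 729 bp for peaks at starts without it and 641 bp for the remaining peaks. The median distance to the nearest gene start was 17032 bp and to the nearest H3K4me3 region 32639 bp. A distance of more than 100000 bp from any H3K4me3 region applied to 1477 of them (27.2%), and 120 (2.21%) lay within 1000 bp of one. At the distance limit itself, 282 peaks lay more than 1000 and up to 2000 bp from a start, with a median width of 701 bp, and 826 Smyd3 peaks without H3K4me3 lay 1 to 1000 bp from one, with a median width of 680 bp.

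Only 51 gene-body peaks exceeded 2000 bp, and several of the widest covered the ends of genes for secreted liver proteins. The second of 2 peaks in Alb (albumin) was 4272 bp wide at chr5:90902842-90907113 (build mm9) and ran over the annotated end of the 15.7 kb gene. The Smyd3 list held 5 peaks over Alb in all, from -0.17 to 17.20 kb from its start, while H3K4me3 of WT liver stopped at 7.87 kb and that of Smyd3KO liver at 8.93 kb. Smyd3 was thus listed over nearly all of the albumin gene, and H3K4me3 over its upstream portion. In Serpina3k, a member of the serine protease inhibitor cluster, a 4031 bp peak at chr12:105582544-105586574 began 1047 bp beyond the H3K4me3 region and ran over the gene end. In Fgb (fibrinogen beta chain), a 3475 bp peak at chr3:82844451-82847925 did the same, and it touched the H3K4me3 region of Smyd3KO liver, which ended at 6.32 kb from the start against 4.42 kb in WT.

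Other hepatocyte genes showed the same placement with smaller peaks. Of 14 hepatocyte markers, 6 were hosts (42.9%, against 16.3% of coding genes): Ass1, which makes argininosuccinate in the urea cycle, had 3 peaks, Alb and Tat (tyrosine aminotransferase) had 2, and Fgb, Pck1 (the gluconeogenic enzyme PEPCK) and Serpina1a (alpha-1-antitrypsin) had 1. Those in Tat, Pck1 and Serpina1a all lay in the last of 10 equal segments of the gene, and the 3 in Ass1 did not, falling in segments 6, 6 and 8. The Pck1 peak (chr2:172984660-172985966) began 6111 bp into a 6.23 kb gene, so most of it lay past the annotated end. The 2040 bp peak of Igfbp1 (an insulin-like growth factor binding protein secreted by liver) likewise began 4615 bp into a 4.76 kb gene, 445 bp from H3K4me3. The widest gene-body peak of all was elsewhere: 5026 bp in segment 8 of Ahdc1 at chr4:132617216-132622241, a gene that held 4 more. Filip1 (4833 bp) and Arl15 (4147 bp) also held wide peaks far from their ends. Of the 51 peaks over 2000 bp, 7 (13.7%) lay within 1000 bp of a coding gene end.

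**Figure D1:**
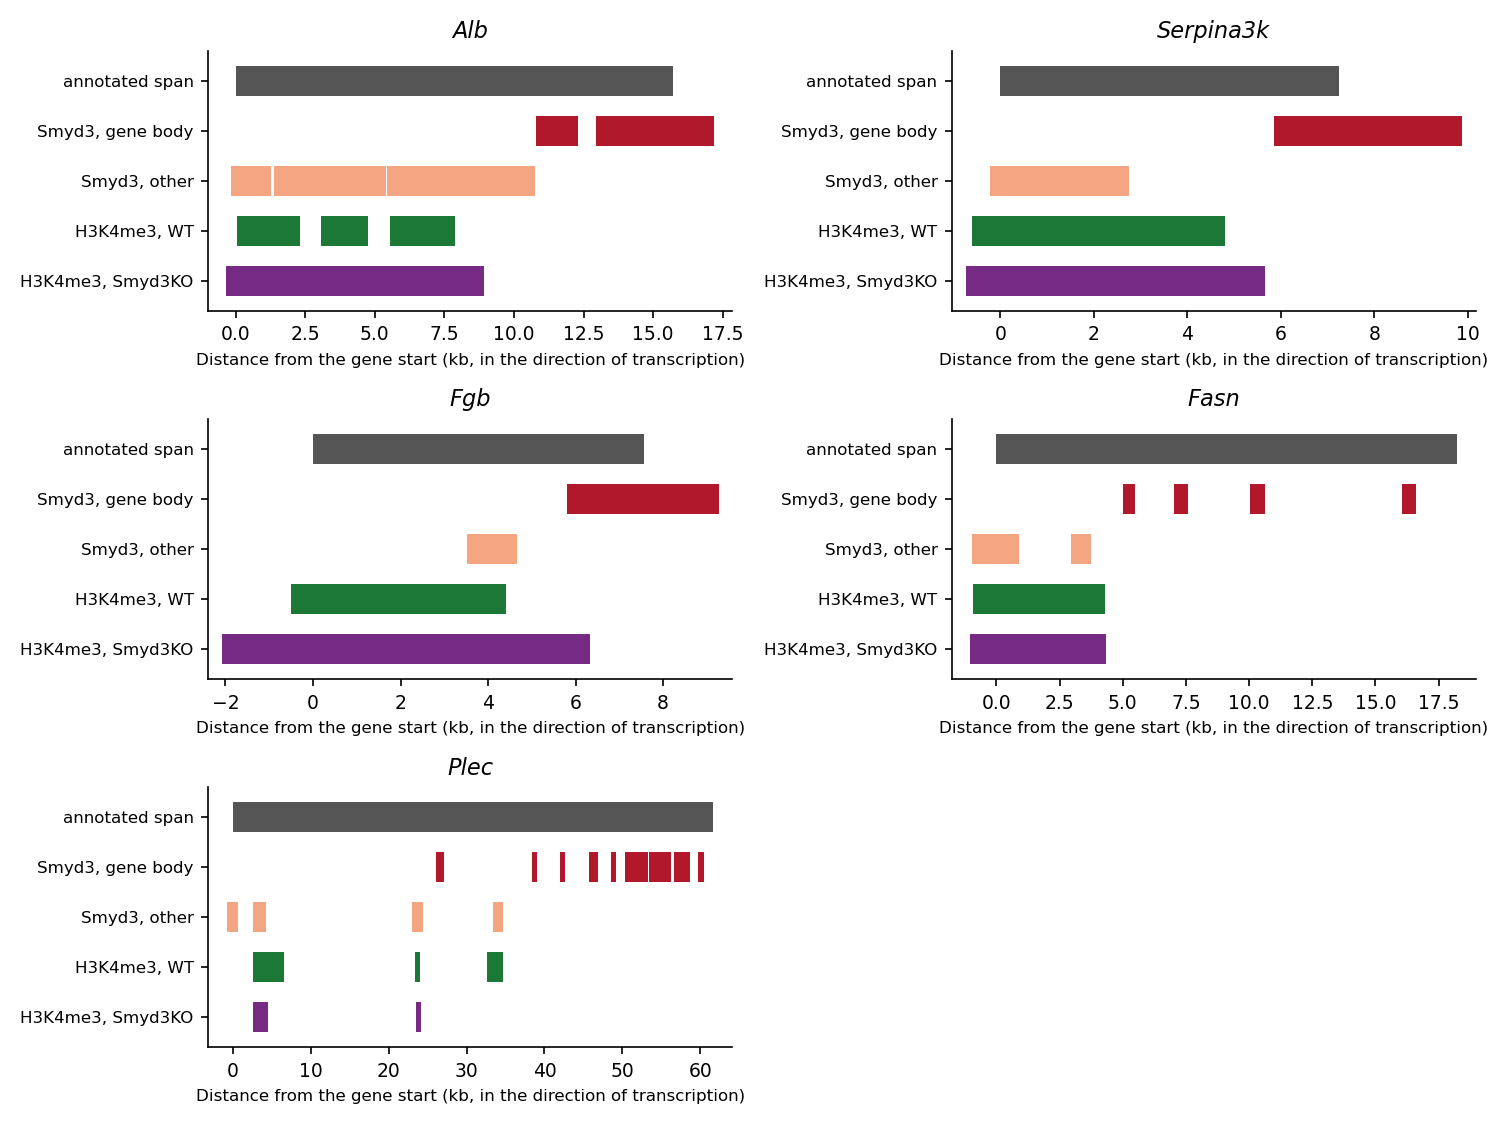
Annotated span, Smyd3 peaks (gene-body peaks and all others separately) and H3K4me3 regions of DEN-treated WT and Smyd3KO liver at 5 host genes, in kb from the gene start along the direction of transcription; each panel is drawn to its own scale. In Alb, Serpina3k and Fgb 1 wide gene-body peak crosses the gene end, while Fasn and Plec hold 4 and 9 separate ones.

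Position within the gene was uneven. Each coding gene was divided into 10 equal segments, and peaks were counted per Mb of eligible span by their midpoint. Eligible span lies outside H3K4me3 and more than 1000 bp from any start, so excluded bases do not enter the density. A peak was still dropped when any of its bases was excluded, which can lower the count just beside the excluded span. Peaks with a midpoint past the gene end were counted in segment 10, although its span stops there. The part of these 2 edge effects in the densities was not tested. Over all genes the density was 3.93 peaks per Mb in segment 1 and 8.98 in segment 10. In genes of 10 to 30 kb it was 3.03 in segment 1 and 23.0 in segment 10, and in genes of 30 to 100 kb 3.96 and 9.78. At 100 to 300 kb it was 3.97 and 6.22. In genes over 300 kb it was 4.0 in segment 1, between 3.44 and 4.48 in segments 2 to 9 and 3.98 in segment 10. In genes under 10 kb it was 7.49 in segment 2, highest in segment 8 (37.5) and 27.6 in segment 10. Segment 10 was therefore the densest in genes of 10 to 300 kb, and neither in the shortest nor in the longest genes. Within 1000 bp of a coding gene end lay 574 gene-body peaks (10.6%), compared with 14.4% of peaks at starts without H3K4me3, 7.67% of peaks inside H3K4me3 and 0.97% of the remaining peaks. The remaining peaks touch no coding gene by the way they were chosen, so their low share is partly set by that rule. Segment 10 held 17.2% of placements in hosts with enough RNA to test and 13% in hosts without.

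Peak density rose steeply with GC content. With coding genes ranked by the GC fraction given in the table and cut into 5 classes of equal size, the density was 3.90, 3.19, 3.92, 8.73 and 37.7 peaks per Mb from the lowest to the highest class. Genes under 10 kb had 24.5 peaks per Mb and genes over 300 kb 3.95. Within the highest GC class the density was 61.8 in genes under 10 kb, 44.2 at 10 to 30 kb, 25.5 at 30 to 100 kb and 20.3 at 100 to 300 kb (6.85 over 300 kb, where the class has only 2 genes), and within the lowest class it was between 1.39 and 4.23 at every length. The share of genes that were hosts ran the other way, from 5.65% under 10 kb to 78.8% over 300 kb. Long genes offer more span, and its part in this share was not tested. GC content can also affect how efficiently fragments are amplified and sequenced, and no input library was analysed here, so its part in these densities was not tested.

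**Figure D2:**
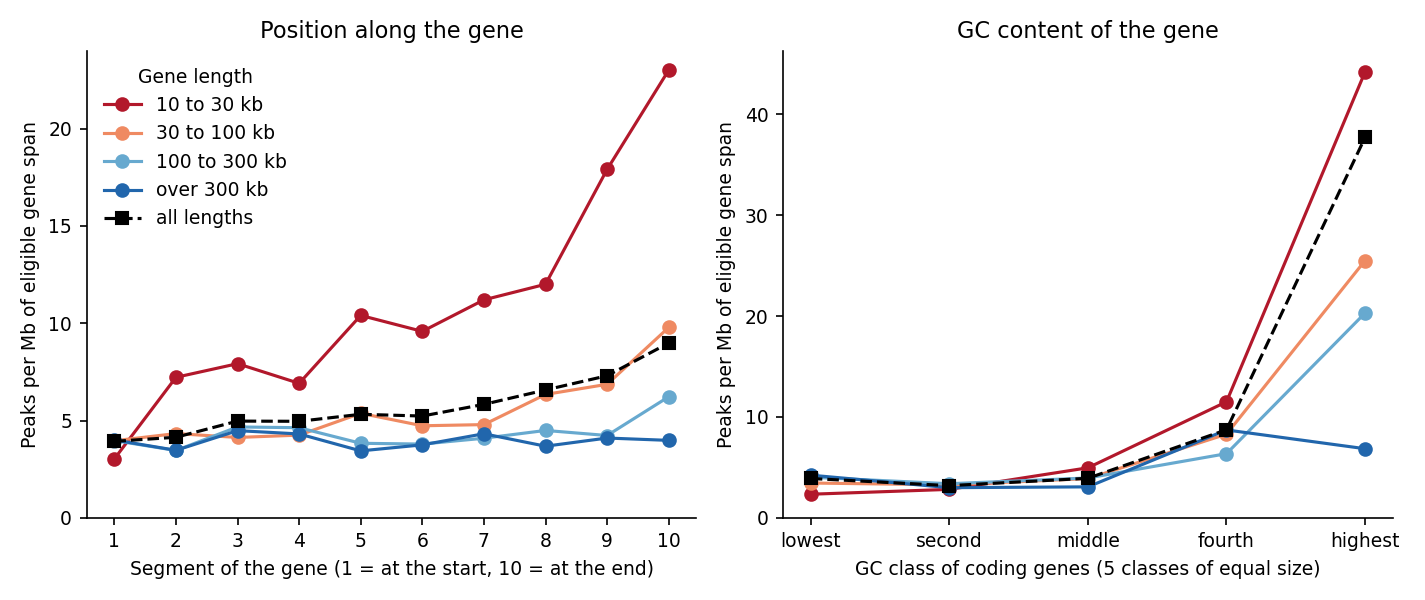
Gene-body Smyd3 peaks per Mb of eligible gene span, by segment of the gene from start to end (left) and by GC class (right); coloured lines are gene length classes from 10 kb up and the dashed line is all coding genes. Density climbs to 23.0 per Mb at the ends of genes of 10 to 30 kb and stays near 4 along genes over 300 kb, and over all lengths it is 37.7 per Mb in the highest GC class.

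Most hosts held 1 peak (2593 genes), 635 held 2, 227 held 3 and 194 held 4 or more. Of these 194, 95 were genes over 300 kb and 66 belonged to the highest GC class. Among the very long genes, Nell1, Agbl4 and Fhit held 11 peaks each and Cntnap2 held 10. Fhit spans a common fragile site, and Cntnap2 encodes a neuronal adhesion protein. Of 29 very long genes on a fixed list, 24 were hosts, with 113 peaks together. The gene model with the most peaks, Gm20388 with 68, is a 4435 kb span that encloses 72 other coding genes and had a value of 0 in every library. It was the sole host of 32 peaks. Pcdha4 stood for 18 peaks in the alpha protocadherin cluster, and the span given for Fgfr2, 3009 kb, held 14, none of them within 150 kb of its start.

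Some peaks were crowded together. Within 5000 bp of another gene-body peak lay 1043 (19.2%), and 98 runs of 3 or more formed with gaps of at most 5000 bp. The longest run had 8 peaks over 22094 bp of Plec (plectin, a cytoskeletal linker) at chr15:76002534-76024627, 53% of which was covered. Bahcc1 and Bsn each held a run of 6, and Cyp26b1 (a retinoic acid hydroxylase), Furin (a proprotein convertase), Ltbp4, Pitx1 and Spen each a run of 5. Of the 35 hosts of runs of 4 or more, 30 (85.7%) belonged to the highest GC class. Runs were found in genes with little RNA and with much: Bsn, which encodes a presynaptic scaffold, had 11, 7 and 5 normalized counts in WT and 9, 7 and 6 in DEN-treated WT, while Plec had 2352, 1489 and 1470 in WT and 3041, 2150 and 2694 in DEN-treated WT.

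H3K4me3 at host starts varied with gene length. H3K4me3 of WT liver lay at the start of 2053 hosts (56.3%), against 51.5% of other coding genes, and a Smyd3 peak lay at the start of 2311 (63.3%), against 49.6%. Both were present at 1791 host starts (49.1%, against 43.2%). The median length was 50.7 kb for hosts and 12.5 kb for other coding genes, and the Smyd3 and joint shares were not split by length. Of the 3649 hosts 499 were under 10 kb, and of the 18720 other coding genes 8338 were, so the overall shares compared genes of unlike length. Within length classes, hosts carried H3K4me3 more often only under 10 kb (49.1% of hosts and 33.6% of others). Hosts carried it less often than other genes of their length at 10 to 30 kb (62.0% and 63.5%), 30 to 100 kb (61.8% and 69.2%), 100 to 300 kb (56.2% and 67%) and over 300 kb (39.1% and 59.8%). Of the 194 hosts with 4 or more peaks 49.5% had it. The other 1596 hosts held a gene-body peak with no H3K4me3 at their annotated start, and 663 of these (41.5%) had enough RNA to test, against 95.1% of hosts with H3K4me3. In all, 3880 gene-body peaks (71.5%) had at least 1 host that could be tested for RNA.

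In Smyd3KO liver 177 gene-body peaks (3.26%) overlapped an H3K4me3 region, although none did in WT by the way they were chosen. The share was 13.4% for Smyd3 peaks at starts without WT H3K4me3 and 4.49% for the remaining peaks outside WT H3K4me3. The 165 regions concerned had a median width of 1072 bp, against 1576 bp over all 17491 regions of the Smyd3KO list, and 20 of them (12.1%) also reached a WT region, as at Fgb. The Smyd3KO list was longer than the WT list (15579), and with 1 list per genotype no test of a gain or loss of H3K4me3 was possible. The 165 hosts of these peaks include Auts2, with a 2088 bp peak 1004365 bp from its start. Of the 118 that could be tested, 41 (34.7%) were called in DEN-treated WT against WT, with 31.7% of all hosts and 29.6% of all genes called. In DEN-treated Smyd3KO against DEN-treated WT 38 (32.2%) were called, with 29.7% of all hosts and 33.9% of all genes. In untreated Smyd3KO against WT 0 were called, with 1.38% of all hosts and 1.16% of all genes.

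RNA was compared with limma on log2(normalized count + 1), with Benjamini-Hochberg adjustment over all 16471 genes tested and a threshold of 0.05. Fold changes are log2 on that scale, given with their standard error, with n = 3 mice per group. Of the hosts, 2615 were tested, 1034 had too little signal and 48 of the latter were at 0 in every library. The comparisons with DEN-treated WT share those 3 libraries, so their directions are not independent of each other.

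Treatment with DEN changed host genes about as often as other genes and more often upward. In DEN-treated WT against WT, 830 of 2615 tested hosts were called (31.7%), with 29.6% of all genes and 31.6% of coding genes called. Of the hosts 581 rose (22.2%, against 16.1% of all and 18.2% of coding genes) and 249 fell (9.52%, against 13.5% and 13.4%), so that 70.0% of called hosts and 54.8% of called coding genes without a gene-body peak were higher. The median log2 fold change was 0.20 over hosts and -0.02 over all genes tested. When each library was shifted to a common median, which moved the median of all genes to -0.13, 505 hosts rose and 333 fell, 60.3% of the called, against 43.4% of called coding genes without a peak. The higher share among hosts was thus seen under both scalings. GC content moved with it: 27.6% of tested hosts and 21.9% of other coding genes rose in the highest GC class, and 12.9% and 12.1% in the lowest. By length, 23.8% of hosts and 17.2% of other coding genes rose at 10 to 30 kb, 23.8% and 22.4% at 100 to 300 kb, and 18.2% and 22.2% over 300 kb, so the higher share among hosts was not seen in the longest genes.

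Among single hosts the steepest rise was that of Igfbp1, at 25, 111 and 208 normalized counts in WT, 182, 105 and 487 in Smyd3KO, 14331, 46712 and 29834 in DEN-treated WT and 7564, 6499 and 1211 in DEN-treated Smyd3KO. All DEN-treated livers stood above all untreated ones (log2 fold change in WT 8.32 ± 0.81, adjusted p = 1.3e-05 by limma), and the DEN-treated genotypes did not overlap. Without WT replicate 1 the change was 7.47, and without WT replicate 3 it was 8.97. Scn8a, a voltage-gated sodium channel, had 17, 13 and 10 in WT and 679, 1219 and 1231 in DEN-treated WT (6.16 ± 0.33, adjusted p = 2.2e-07). Rasal1 (a Ras GTPase-activating protein, 6.65), Cacna1b (a voltage-gated calcium channel, 6.07), Arhgap22 (a GTPase-activating protein, 5.95) and Prelid2 (5.70) rose from values at or below 9 in every WT liver. Outside the naming rule and chosen after its values were seen, Trf (transferrin) held a 2448 bp peak in segment 3 and rose from 9621, 7971 and 8266 to 46790, 57504 and 55611 (2.63 ± 0.21, adjusted p = 3.2e-06).

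The hosts that fell most with DEN were Meox2, C1s, Mup2, Mup15, Mup6 and Cyp2c29. Cyp2c29, a cytochrome P450, fell from 67683, 108004 and 82276 in WT to 10278, 4795 and 18906 (-3.11 ± 0.43, adjusted p = 0.00017). The major urinary protein genes Mup2, Mup15 and Mup6 changed by -3.76, -3.55 and -3.33, and without DEN-treated WT replicate 2 by -2.68, -2.59 and -2.43. Without DEN-treated WT replicate 1, Mup2 changed by -4.47 and Mup15 by -4.29. Both families have near-identical copies among which reads can be shared, so the values of single copies are uncertain. Meox2, a homeobox gene of mesoderm and vessels, had 296, 843 and 524 in WT and 4, 1 and 5 in DEN-treated WT (-7.02 ± 0.82, adjusted p = 5.3e-05). C1s, a complement protease, had 11219, 13 and 18 in DEN-treated WT against 9877 to 12056 in WT, so 1 treated liver was at the WT level. Its change of -6.24 passed the threshold (adjusted p = 0.015) but did not without DEN-treated WT replicate 2 (-4.55, adjusted p = 0.069) or replicate 3 (-4.77, adjusted p = 0.072), and without replicate 1 it was -9.38.

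**Figure D3:**
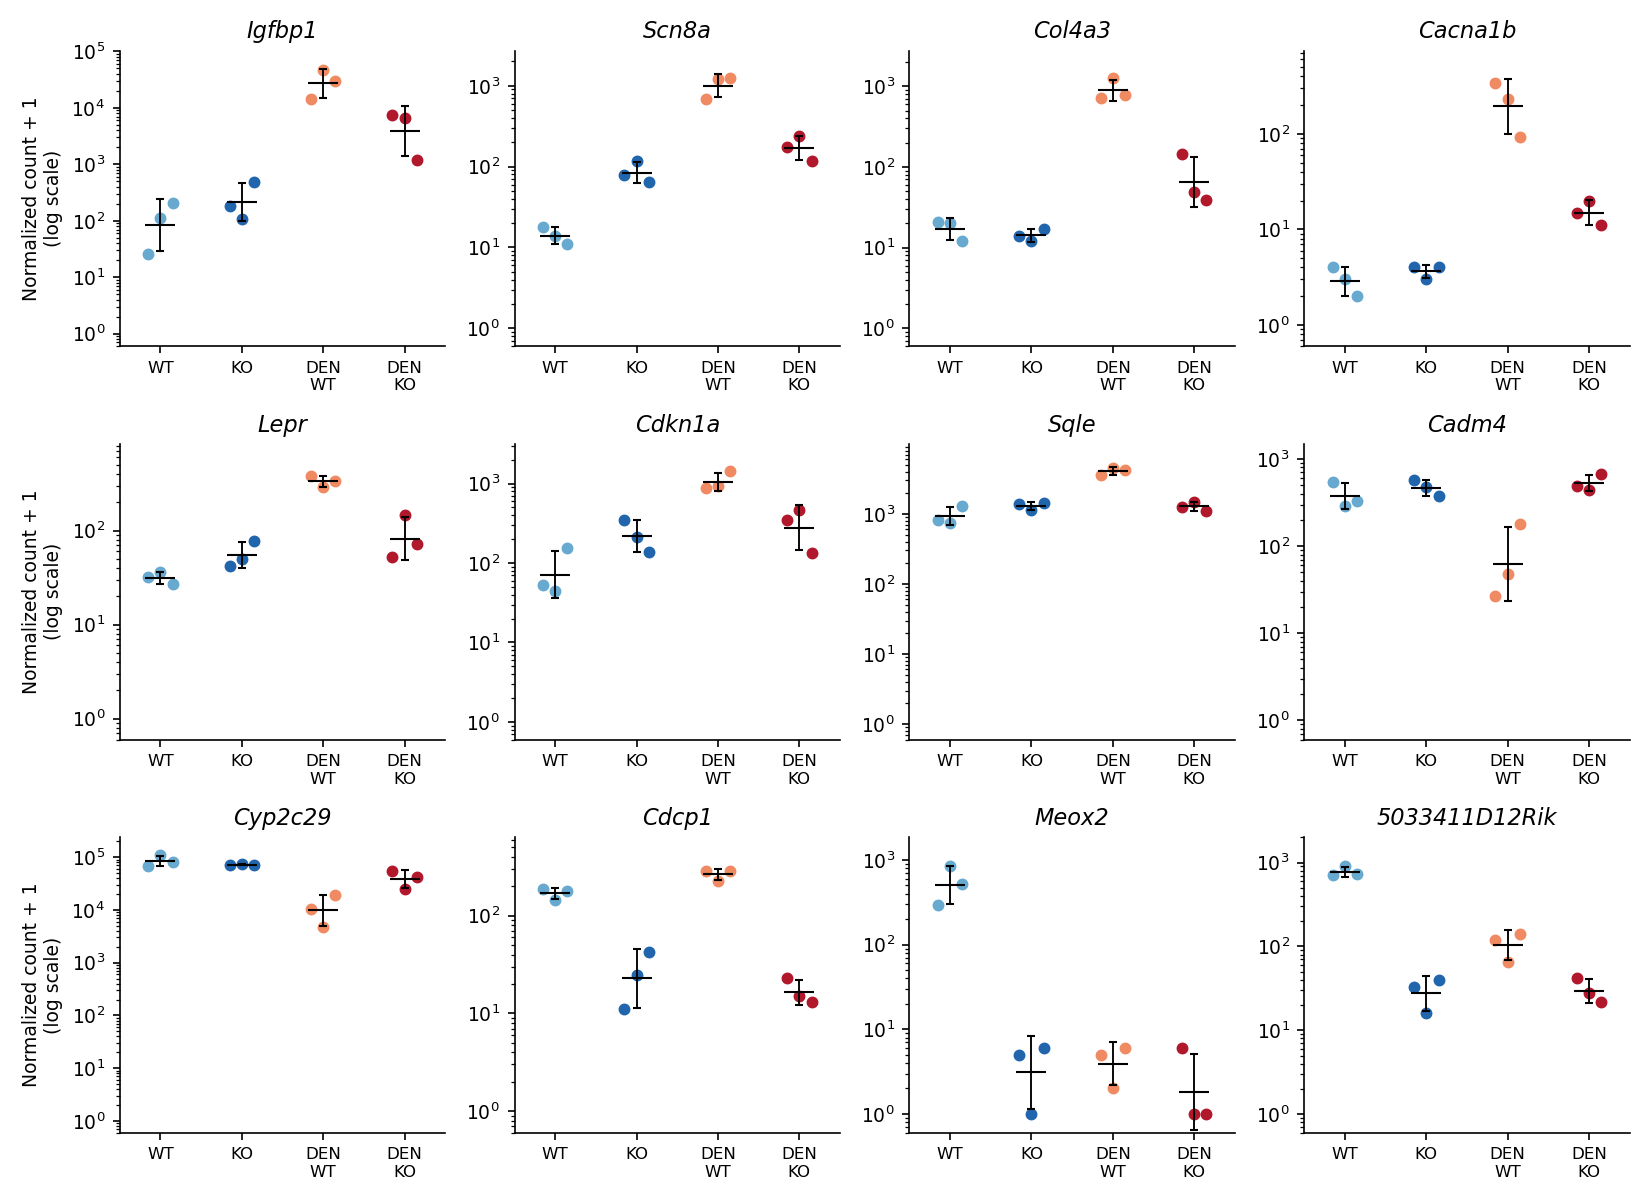
Normalized count + 1 (log scale) of 12 host genes in each liver, 3 mice per group (WT, untreated; KO, untreated Smyd3KO; DEN WT and DEN KO, the DEN-treated groups); the bar is the mean of the log2 values and the whiskers are 1 SD of them. Igfbp1, Scn8a, Col4a3, Cacna1b, Lepr, Cdkn1a and Sqle are highest in DEN-treated WT, Cadm4 and Cyp2c29 are lowest there, Cdcp1 is low in both Smyd3KO groups, and Meox2 and 5033411D12Rik are highest in untreated WT.

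Loss of Smyd3 in DEN-treated liver changed a smaller share of hosts than of all genes. In DEN-treated Smyd3KO against DEN-treated WT 776 hosts were called (29.7%), with 33.9% of all genes and 34.1% of coding genes called. Of these 297 rose (11.4%, against 16.4% of all and 14.6% of coding genes) and 479 fell (18.3%, against 17.4% and 19.5%). Higher hosts made up 38.3% of those called, and 43.8% among called coding genes without a gene-body peak. This gap was not seen at every gene length. It was 54.4% of called hosts and 62.7% of called others under 10 kb, and 34.6% and 40% over 300 kb. The order was reversed at 10 to 30 kb (49.2% and 40.3%), 30 to 100 kb (31% and 28.2%) and 100 to 300 kb (30.6% and 27.8%). The median log2 fold change was -0.12 over hosts and -0.06 over all genes. After the shift to a common median, which moved the median of all genes to 0.02, 338 hosts rose and 407 fell. The smaller share of called hosts was not seen at every length or GC content. Under 10 kb 28% of hosts and 38.6% of other coding genes were called, at 100 to 300 kb 32.1% and 32.2%, and over 300 kb 32.2% and 30.9%. In the highest GC class the shares were 26.4% and 37.6%, in the middle class 34.8% and 33.7%, and in the lowest 34.1% and 35.2%.

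Most of the hosts that fell furthest were low or absent in untreated liver and high in DEN-treated WT. Col4a3, a basement membrane collagen chain, had 20, 19 and 11 in WT, 13, 11 and 16 in Smyd3KO, 710, 1252 and 783 in DEN-treated WT and 144, 48 and 38 in DEN-treated Smyd3KO (-3.77 ± 0.44, adjusted p = 9.6e-05). The genotypes did not overlap after DEN, and DEN-treated Smyd3KO stood above both untreated groups. 9030425E11Rik (-4.96), Lrrc24 (-4.72), Dnaic1 (an axonemal dynein chain of cilia, -4.36) and 1110012J17Rik (-3.78) were likewise highest in DEN-treated WT, with no overlap with another group. Dnaic1 read 509, 554 and 517 there and 19, 49 and 16 in DEN-treated Smyd3KO. The cholangiocyte marker sum was also highest in DEN-treated WT, and its part was not tested. Cdcp1, a transmembrane glycoprotein of epithelial cells, differed from these, with 187, 145 and 178 in WT, 10, 24 and 42 in Smyd3KO, 283, 228 and 288 in DEN-treated WT and 22, 14 and 12 in DEN-treated Smyd3KO (-4.01 ± 0.41, adjusted p = 4.6e-05). It was low in every Smyd3KO liver, treated or not.

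The hosts that rose most in DEN-treated Smyd3KO were genes that DEN lowered in WT. Cadm4, an adhesion molecule, had 547, 290 and 332 in WT, 26, 47 and 180 in DEN-treated WT and 488, 445 and 675 in DEN-treated Smyd3KO (3.10 ± 0.51, adjusted p = 0.00068). Without DEN-treated WT replicate 1 the change was 2.50 and without replicate 3 it was 3.88. Ntrk2, the receptor for brain-derived neurotrophic factor, rose by 3.08 ± 0.53 (adjusted p = 0.00087), Trhde, which degrades thyrotropin-releasing hormone, by 2.73 ± 0.52 (adjusted p = 0.0016), Mup6 by 3.41 and Mup2 by 2.97. Without DEN-treated WT replicate 2, Mup6 rose by 2.51 and Mup2 by 1.89, and without replicate 1 Mup2 rose by 3.68. C1s was again called (6.23, adjusted p = 0.014), but not without DEN-treated WT replicate 2 (4.55, adjusted p = 0.067) or 3 (4.77, adjusted p = 0.065), and without replicate 1 the value was 9.38.

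The DEN effect itself differed between genotypes for 378 hosts (14.5%, with 16.6% of all and 16.3% of coding genes called), by the interaction term of the same fit. It was lower in Smyd3KO for 267 (10.2%, against 7.83% of all and 8.86% of coding genes) and higher for 111 (4.24%, against 8.73% and 7.47%). Of called coding genes without a gene-body peak, 49.0% had a higher effect in Smyd3KO, compared with 29.4% of called hosts. The median was -0.24 over hosts and -0.03 over all genes. The shift to a common median gave 127 higher and 230 lower, and 56.1% higher among genes without a peak. Gene length moved with this split: among genes of 30 to 100 kb the called share was 3.96% higher and 11.9% lower for hosts and 3.95% higher and 10.7% lower for other genes, and among genes under 10 kb 6.85% and 5.30% for hosts and 14.4% and 6.14% for others. In the former class hosts and other genes were thus alike in direction. Of the called, the share higher was 56.4% for hosts and 70.1% for others under 10 kb, and 31% and 46% at 10 to 30 kb. It was 21.1% and 26.6% at 100 to 300 kb, and 33.3% and 25% over 300 kb. From the highest to the lowest GC class it was 29.3% and 58.2%, 20.5% and 51.2%, 30.4% and 50.6%, 32.7% and 44%, and 37.1% and 33.9%. The count of called hosts was 251 without Smyd3KO replicate 1 and 245 without DEN-treated Smyd3KO replicate 3.

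**Figure D4:**
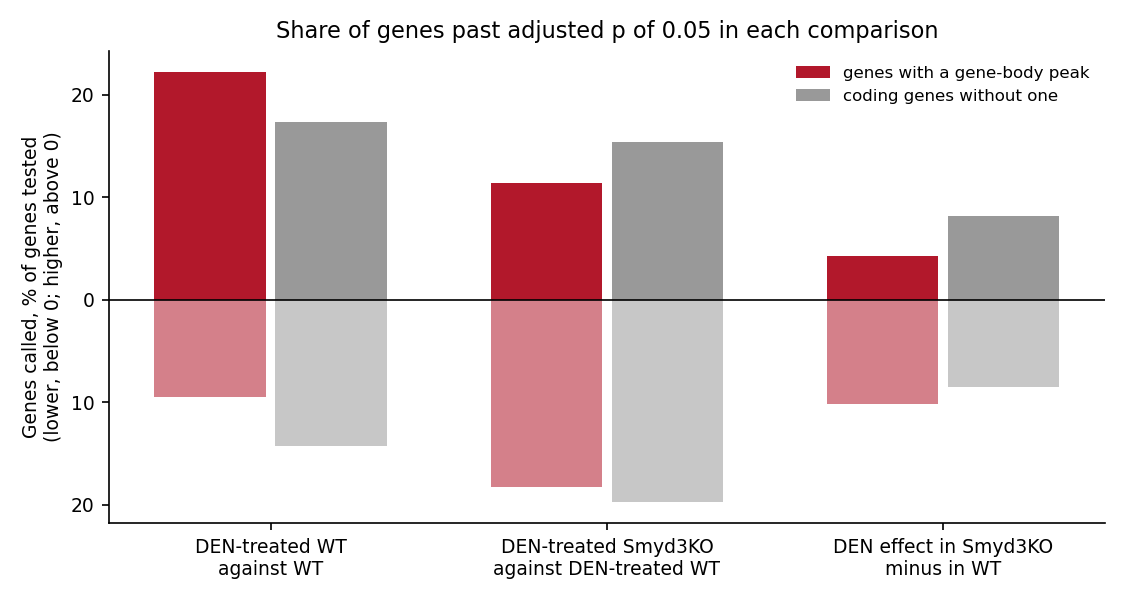
Share of tested genes called higher (above 0) or lower (below 0, paler) by limma in 3 comparisons, for host genes and for coding genes without a gene-body Smyd3 peak. Hosts are called higher in 22.2% and lower in 9.52% after DEN in WT, and lower in 10.2% and higher in 4.24% for the difference in DEN effect.

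Without DEN, few hosts differed between genotypes. In untreated Smyd3KO against WT, 36 hosts were called (1.38%, with 1.16% of all and 1.17% of coding genes called). Of these, 22 were higher (0.841%, against 0.546% of all and 0.565% of coding genes) and 14 lower (0.535%, against 0.613% and 0.608%). This count depended on single livers, being 12 without WT replicate 2, 14 without Smyd3KO replicate 1 or replicate 2, and 117 without Smyd3KO replicate 3. Meox2 was the most changed, at 4, 0 and 5 in Smyd3KO and 296, 843 and 524 in WT (-7.35, adjusted p = 0.00094), and -6.54 without Smyd3KO replicate 2. Its values in both DEN-treated groups were 0 to 5, so the high level was found in untreated WT alone. Whether strain background differed among these C57BL6/CBA mice was not tested, for Meox2 or for C1s. 5033411D12Rik, an 837 kb gene with 5 peaks, had 709, 911 and 733 in WT, 32, 15 and 39 in Smyd3KO, 120, 64 and 139 in DEN-treated WT and 41, 27 and 21 in DEN-treated Smyd3KO (-4.82 without DEN, adjusted p = 4.2e-05). Cdcp1 was lower by 2.90 (adjusted p = 0.0035), and Scn8a was higher, at 78, 115 and 64 in Smyd3KO (2.58, adjusted p = 0.0023). Fam129c (-3.29) and Disp2 (-2.66) passed the threshold but not in several fits that left out a library. For Fam129c the adjusted p was 0.069 without WT replicate 1, 0.12 without WT replicate 2 and 0.069 without Smyd3KO replicate 1, and the change was -2.70 without Smyd3KO replicate 3. For Disp2 it was 0.059 to 0.22 without any 1 of the 6 untreated libraries, DEN-treated WT replicate 3, or DEN-treated Smyd3KO replicates 2 and 3.

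Smyd3 was itself a host. Its peak (chr1:181445092-181445513, 422 bp) lay 2.66 kb from the start of the 566 kb gene and 1644 bp from H3K4me3. Its RNA was 79, 89 and 59 in WT, 29, 17 and 22 in Smyd3KO, 57, 71 and 74 in DEN-treated WT and 12, 3 and 8 in DEN-treated Smyd3KO, with no overlap between genotypes. The difference was -3.13 ± 0.41 after DEN (adjusted p = 0.00018) and -1.71 without it (adjusted p = 0.065). A gene-level value can include exons before the trap.

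Among genes of H3K4 methylation and the SMYD family, 8 of 27 were hosts. Setd1b held 3 peaks, Kdm2b, Kdm5c and Mll2 held 2, and Mll1, Mll5, Prdm9 and Smyd3 held 1. After DEN 3 of the 8 were lower in Smyd3KO, namely Smyd3, Kdm2b (an H3K36 and H3K4 demethylase, -0.81) and Prdm9 (-0.72), and 5 were not past the threshold. The median over the 8 hosts was -0.20, over the 27 genes -0.10 and over all genes -0.06. Of the 27 genes 1 was higher and 8 were lower, and of all genes 16.4% and 17.4%. Neither Kdm2b nor Prdm9 stayed past the threshold without DEN-treated WT replicate 3 (adjusted p = 0.062 and 0.06), DEN-treated Smyd3KO replicate 2 (0.10 and 0.055) or replicate 3 (0.093 and 0.051), and Kdm2b also missed it without DEN-treated WT replicate 2 (0.10).

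Liver transcription factors were hosts in 11 of 30 cases. Among them Gata4 and Rora held 2 peaks, and Foxa3, Gata6, Nfib, Nr1i2, Nr5a2, Rxra and Tbx3 held 1. With DEN in WT 2 of the 11 rose and 2 fell, with a median of -0.09, where 16.1% and 13.5% of all genes did. Of the 30 genes of the list 5 rose and 10 fell. Tbx3, 1 of those that fell, missed the threshold without DEN-treated WT replicate 2 (-1.43, adjusted p = 0.15). Gata6, at 109, 149 and 121 in WT and 319, 430 and 459 in DEN-treated WT, rose by 1.66 ± 0.22 (adjusted p = 0.00013) and stood at 177, 159 and 169 in DEN-treated Smyd3KO. Rora, an orphan receptor of the clock and lipid metabolism, had the same order, rising by 1.10 and lower by 0.73 in DEN-treated Smyd3KO. Both had a lower DEN effect in Smyd3KO (interaction -1.86, adjusted p = 0.0028, and -1.38, adjusted p = 0.0029).

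Receptors and cell-cycle genes of growth signalling were hosts in 16 of 39 cases, with 35 peaks, or 21 without the 14 in the 3009 kb span given for Fgfr2. After DEN in WT 5 of the 16 rose and none fell (median 0.40, against -0.02 over all genes), and in DEN-treated Smyd3KO against DEN-treated WT 1 rose and 4 fell (median -0.35). Over the 39 genes of the list 10 rose and none fell with DEN, and 1 was higher and 11 lower in DEN-treated Smyd3KO. Over all genes 16.1% rose and 13.5% fell with DEN, and 16.4% were higher and 17.4% lower in DEN-treated Smyd3KO. Of the 4 hosts that fell there, Apc and Fgfr3 missed the threshold without DEN-treated WT replicate 2 (adjusted p = 0.077 and 0.08) or DEN-treated Smyd3KO replicate 2 (adjusted p = 0.089 and 0.13). Ccnd1, the cyclin of the G1 phase, with 1 peak 7003 bp into a 9.94 kb gene, had 557, 300 and 186 in WT, 2384, 1886 and 1760 in DEN-treated WT and 457, 1180 and 527 in DEN-treated Smyd3KO. It rose by 2.66 ± 0.37 with DEN (adjusted p = 0.0002) and was lower by 1.60 ± 0.37 in DEN-treated Smyd3KO (adjusted p = 0.0057). Fgfr2 rose with DEN by 1.48 ± 0.23, and Insr, the insulin receptor, was lower in DEN-treated Smyd3KO by 0.87 ± 0.14 (adjusted p = 0.00069). Fgfr4, the hepatocyte receptor for FGF15, was the 1 host of this list that rose there (1055, 1079 and 1138 in DEN-treated WT, 1964, 1737 and 1787 in DEN-treated Smyd3KO, 0.74 ± 0.15, adjusted p = 0.0025).

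In JAK-STAT and IL6 signalling 6 of 26 genes were hosts, with Jak3, Lepr and Stat5b at 2 peaks and Jak1, Stat5a and Tyk2 at 1. With DEN in WT 3 rose and none fell (median 0.57), and of the 25 tested genes of the list 6 rose and 2 fell. Over all genes 16.1% rose and 13.5% fell. Lepr, the leptin receptor, had 31, 35 and 26 in WT, 41, 49 and 77 in Smyd3KO, 377, 287 and 336 in DEN-treated WT and 51, 146 and 71 in DEN-treated Smyd3KO. It rose by 3.40 ± 0.35 with DEN (adjusted p = 2e-05) and was the 1 host of the list that was lower in DEN-treated Smyd3KO (-2.02 ± 0.35, adjusted p = 0.00099). Jak3 rose by 0.97 and Tyk2 by 0.68 with DEN.

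Cholesterol genes were hosts in 7 of 24 cases, among them Nsdhl with 2 peaks, and Mvk, Scap, Sqle and Srebf2 with 1. In DEN-treated WT 4 of the 7 rose and none fell (median 0.73), and in DEN-treated Smyd3KO 4 were lower than in DEN-treated WT and none higher (median -0.62). Over the 24 genes of the list the counts were 11 higher and none lower, then 1 higher and 17 lower, so the hosts' directions were those of the list. The shares of all genes were 16.1% higher and 13.5% lower, then 16.4% and 17.4%. The rise of Mvk was at the threshold and missed it without DEN-treated WT replicate 2 (0.48, adjusted p = 0.20). Sqle (squalene epoxidase) had 825, 735 and 1303 in WT, 1383, 1133 and 1443 in Smyd3KO, 3588, 4521 and 4256 in DEN-treated WT and 1263, 1486 and 1114 in DEN-treated Smyd3KO. No DEN-treated WT liver overlapped another group, and the interaction was -2.19 (adjusted p = 0.001). Fasn, which makes fatty acids, held 4 peaks and Acacb 3, but none of the 4 lipogenic hosts passed the threshold in any comparison of the 4.

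In the EMT and invasion list 5 of 24 genes were hosts, each with 1 peak (Axl, Fn1, Plaur, Smad3 and Smad7). With DEN in WT 3 rose and 1 fell (median 1.19), and 2 were lower in DEN-treated Smyd3KO (median -0.66). Over the 24 genes of the list 12 rose and 2 fell with DEN, and 11 were lower in DEN-treated Smyd3KO, against 16.1%, 13.5% and 17.4% of all genes. The fall of Smad7 missed the threshold without WT replicate 1 (-0.51, adjusted p = 0.19), and the lower value of Fn1 in DEN-treated Smyd3KO missed it without DEN-treated Smyd3KO replicate 3 (-0.60, adjusted p = 0.075). Smad3, a transducer of TGF-beta, went from 322, 397 and 415 to 644, 967 and 1008 with DEN and stood at 549, 467 and 467 in DEN-treated Smyd3KO (-0.80 ± 0.21, adjusted p = 0.0097). The stellate cell and fibroblast marker sum was also highest in DEN-treated WT, and its part was not tested. Of 27 oncofetal and tumour markers 7 were hosts, of which 1, Prom1, was called: 12, 18 and 17 in WT, 250, 1019 and 374 in DEN-treated WT, and 29, 73 and 35 in DEN-treated Smyd3KO. Prom1 is also a marker of bile duct cells. With DEN in WT 1 of the 7 hosts and 16 of the 27 genes of the list rose, against 16.1% of all genes.

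Mitosis genes were rarely hosts, with 1 of 30 (Plk1, 3.33%, against 16.3% of coding genes). With DEN in WT 29 of the 30 rose, against 16.1% of all genes. Hosts were 2 of 30 PPARA and fatty acid oxidation genes, 2 of 25 NRF2 targets, 4 of 33 cytochrome P450 and drug metabolism genes, 4 of 28 bile acid genes and 4 of 26 p53 targets. Cdkn1a, the p53-induced cell-cycle inhibitor, held a peak 7316 bp into a 9.74 kb gene and had 52, 43 and 155 in WT, 351, 210 and 138 in Smyd3KO, 867, 928 and 1429 in DEN-treated WT and 343, 469 and 133 in DEN-treated Smyd3KO. It rose with DEN by 3.88 ± 0.51 in WT (adjusted p = 0.00013), and the effect was lower in Smyd3KO (interaction -3.52, adjusted p = 0.0076). The difference between DEN-treated genotypes was -1.91 (adjusted p = 0.012) and missed the threshold without DEN-treated Smyd3KO replicate 3 (-1.38, adjusted p = 0.061). Abcb4, the phosphatidylcholine exporter of bile, held 2 peaks and was higher in DEN-treated Smyd3KO than in DEN-treated WT by 1.28 ± 0.20 (2334, 1785 and 1842 against 4328, 5620 and 4514, adjusted p = 0.00052).

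Acute phase and complement genes were hosts in 6 of 29 cases, and clock genes in 9 of 20 (45%). Fga (fibrinogen alpha chain) held its peak in segment 10, as Fgb did. Of the 6 acute phase hosts, 1 was called in each comparison between DEN-treated WT and another group, and it was C1s. Among the 9 clock hosts 2 rose and 1 fell with DEN in WT (median -0.14), and of the 20 genes of the list 4 rose and 5 fell. Of all genes 16.1% rose and 13.5% fell. The rise of Arntl missed the threshold without DEN-treated WT replicate 2 (adjusted p = 0.18). Time of day was not given in the sources used here.

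Of the 24 very long hosts 15 had enough RNA to test, and their RNA moved in both directions. After DEN in WT 2 rose and 3 fell (median -0.02), and in DEN-treated Smyd3KO 2 were higher and 4 lower than in DEN-treated WT (median -0.32). Over the 20 tested genes of the list the counts were 5 and 4, then 2 and 7, and the shares of all genes were 16.1% and 13.5%, then 16.4% and 17.4%. Without DEN-treated WT replicate 1, Fhit (-0.64, adjusted p = 0.12) and Macrod2 (0.72, adjusted p = 0.097) missed the threshold there. Gpc6, a glypican of 1054 kb, had 27, 42 and 57 in WT, 241, 287 and 271 in DEN-treated WT and 39, 37 and 22 in DEN-treated Smyd3KO (-3.03 ± 0.31, adjusted p = 5.1e-05). Dab1 (1125 kb, 4 peaks), an adaptor of reelin signalling, was likewise highest in DEN-treated WT, with 277, 276 and 361 in DEN-treated WT and 62, 14 and 20 in DEN-treated Smyd3KO (-3.49, and -4.09 without DEN-treated Smyd3KO replicate 1). Dmd (dystrophin, 7 peaks) was lower in DEN-treated Smyd3KO at 229, 233 and 251 against 596, 586 and 523 (-1.25 ± 0.20, adjusted p = 0.0006). Erbb4, a neuregulin receptor with 5 peaks, fell with DEN in WT from 116, 172 and 189 to 27, 16 and 25 (-2.76 ± 0.56, adjusted p = 0.0024). Nell1, Agbl4 and Cntnap2, with 11, 11 and 10 peaks, had at most 6 normalized counts in any library, so many peaks and detectable RNA did not go together in these genes.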

How the data were processed

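RNA was measured in 12 liver libraries and chromatin as peak lists. The RNA values are scores that the authors deposited as normalized, rounded counts, 1 factor per library, so no count model was used. Each coding gene's GC fraction, span and type come from the deposited table. The submitters' processing notes name mm9, cutadapt, TopHat2 2.0.9, Cufflinks, Bowtie2 and DESeq without roles. No source used here names the counting tool or peak caller, or states strand use or pooling of the precipitations. The peak score was 0 in every line, so peaks were described by position and width. The per-library files and the table differed in 0 lines.

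Peaks were classed with pandas 2.3.3 (Python 3.11.15). RNA was tested with limma 3.58.1 (R 4.3.3) on log2(value + 1), in genes with at least 10 in 3 libraries (16471 of 37583), with all 4 groups in 1 fit (8 residual degrees of freedom, trended variance), Benjamini-Hochberg adjustment and a threshold of 0.05, and was checked on simulated data. Libraries are numbered by mouse in the labels. The lowest chi-square per degree of freedom between replicates was 47.6, so none was a repeat of another.

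Named hosts were the 8 with most peaks and those of the 6 widest. Among hosts with a mean of at least 50, they were the 6 that rose and the 6 that fell most with DEN and between DEN-treated genotypes, 4 and 4 in the interaction, and up to 6 in untreated livers. Hosts on the fixed gene lists were named as examples, and some others after their values were seen (Trf, Bsn and the other genes given for wide or crowded peaks, and list examples beyond those with most peaks). Some genes that this rule names are not reported here. Members and lists were chosen with earlier results of these data known. Alternatives changed the peak rule, pseudocount, filter, scaling, block and library set. Polymerase and input libraries were not analysed here.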

Additional observations from a re-analysis of the deposited data

Results flagged for a closer look

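The effect of DEN differed between genotypes by the interaction test (limma, adjusted p below the threshold) for 378 hosts, of which the 4 with the largest values in each direction and a mean of at least 50 are given. The values are the log2 effect of DEN in Smyd3KO minus that in WT. The effect was higher in Smyd3KO for Meox2 (6.25, adjusted p = 0.0045), Mup6 (3.30, adjusted p = 0.012), Trhde (3.23, adjusted p = 0.012) and 5033411D12Rik (3.02, adjusted p = 0.0035). For Meox2 and 5033411D12Rik every untreated WT liver was above every other liver. Meox2 gave 5.43 without Smyd3KO replicate 2 and 5.39 without DEN-treated Smyd3KO replicate 1, and Mup6 gave 2.40 without DEN-treated WT replicate 2.

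The effect was lower in Smyd3KO for 9030425E11Rik (-5.23, adjusted p = 0.0025), Scn8a (-5.15, adjusted p = 0.00036), Prelid2 (-4.88, adjusted p = 0.00055) and Lrrc24 (-4.45, adjusted p = 0.019). Lrrc24 gave -5.31 without WT replicate 1 and -3.64 without Smyd3KO replicate 2. In each of these 4 genes every DEN-treated WT liver was above every other liver.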

How the results depend on the processing

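Only peaks at least as wide as the median of the whole list left 1730 gene-body peaks, with 268 hosts called between DEN-treated genotypes, 308 with DEN in WT, 15 in untreated Smyd3KO against WT and 120 in the interaction, since fewer peaks enter. Dropping Gm20388 as a host, an alternative chosen after seeing the data, left 5393 peaks. With 1 library left out at a time, the counts of called hosts ran from 527 to 869, 654 to 921, 12 to 117 and 245 to 452 in the same order. With only the groups of the contrast in the fit, untreated Smyd3KO against WT gave 22, and the cause was not tested. A replicate block gave 737, 795, 29 and 349. Libraries that share a replicate number correlated at -0.10 to 0.12 in their deviations (median -0.015, n = 18) and those that do not at -0.15 to 0.13 (median 0.015, n = 36), so the numbers did not pair the libraries. Of 104 calls of named genes, 31 were lost in at least 1 of 20 settings and none changed direction. Each group has 3 mice, the peaks have 1 list per target, and low values limit what could be tested in 1034 hosts.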
